A study of Mus musculus with 58 samples.

Results

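Lithium and fluoxetine were compared directly in the prefrontal cortex of wild-type (WT) mice, 10 lithium libraries against 10 fluoxetine libraries, each arm with 5 females and 5 males. These were all the libraries that the labels give as WT with either drug, 20 of the 58 in the series, and none was chosen by a measured value. The rest of the series holds 9 WT mice on vehicle and mice heterozygous (HT) for Tanc2, which encodes a scaffold protein of the postsynapse, under the same 3 treatments. All mice were of the C57BL/6J strain. Pups took in the drug with their mother's milk from postnatal day 3 to 24, for 3 weeks, and the cortex was taken at postnatal day 25. Each library stood for 1 mouse and held polyadenylated RNA, prepared with a kit that keeps strand. No dam or litter is named, so mice of an arm may share a mother. A p-value of the main fit measures the spread between mice within groups, pooled over the 12 groups of all 58 libraries.

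Lithium is a mood stabiliser that inhibits inositol monophosphatases and the kinases GSK3α and GSK3β, which hold back β-catenin. Fluoxetine blocks the serotonin transporter and so raises serotonin outside the cell. Neurons answer synaptic activity by switching on immediate early genes, among them transcription factors of the Fos, Egr and Nr4a families and effectors such as Arc at the synapse. They do so through kinase pathways that act on the transcription factors CREB and SRF at promoters.

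Values are the deposited normalized read counts, in which each library's reads were scaled by a single factor. Differences are log2(value + 1) of lithium minus fluoxetine with females and males weighed equally, written with their SE, and a gene passed with an adjusted p (limma, Benjamini-Hochberg over 17925 genes) under 0.05. Recovered reads ran from 24211299 to 30090534 a library in lithium and from 23521835 to 37801615 in fluoxetine. Sex markers matched the labels in 10 of 10 females and 10 of 10 males. Tanc2 stood at 6904 to 8024 in lithium and at 6566 to 8155 in fluoxetine.

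A pseudogene, Gm10221, divided the libraries in a way that runs alongside the drug. It had reads in all 10 lithium libraries (86.8 to 223 normalized reads), in 3 of the 5 fluoxetine females (154 to 236), and in none of the other 2 fluoxetine females, the 5 fluoxetine males or the 9 vehicle libraries. In males the drug and these reads cannot be told apart. In females 5 lithium and 3 fluoxetine libraries share the reads, and values of that smaller comparison are given for most gene lists and for some genes. Scand1, a gene of the SCAN domain family that divided in the same way, ran from 306 to 349 in the 3 fluoxetine females with Gm10221 reads but stood at 151 and 103 in those without. Its difference was 0.96 ± 0.14 over all 20 libraries and 0.07 among females with the reads. Values of Gm10221 and other pseudogenes depend on how reads shared with near-identical genes were divided.

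In the direct comparison 1712 genes passed (9.55% of those tested), 948 higher in lithium (5.29%) and 764 lower (4.26%). Most differences were small: the median was 0.23 among the higher and -0.22 among the lower, and only 20 higher and 12 lower genes differed by 1 or more on the log2 scale. The median over all genes tested was -0.0039. In 40 genes (0.223%) every lithium library lay above every fluoxetine library, and in 9 (0.0502%) every one lay below. The number of genes that passed was 1134 without the third lithium male, 2338 without the fifth fluoxetine female, and between these without any other single library. It was 1158 with only the 20 libraries compared in the fit.

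The 12 named genes with the smallest p among those higher in lithium were Rasl11a, Sbk1, Ier5l, Stk40, Nab2, Rara, Spry4, Fam43b, Ier5, Phf13, Per1 and Itpkc. Rasl11a, a small GTPase of the Ras family (chr5:146845071-146847726, plus strand, GRCm38), ran from 104 to 164 normalized reads in lithium (median 128) and from 46.8 to 92.2 in fluoxetine (median 71.4). The arms did not overlap, and the difference was 0.90 ± 0.09 (adjusted p = 4.47e-09). Ier5l, an immediate early response gene, had 305 to 516 in lithium (median 385) and 153 to 252 in fluoxetine (median 194), again with no overlap, a difference of 1.02 ± 0.11 (adjusted p = 7.47e-09). Rara, the retinoic acid receptor alpha, had 320 to 566 in lithium (median 462) and 199 to 280 in fluoxetine (median 243), a difference of 0.89 ± 0.10 (adjusted p = 3.17e-08). The kinase gene Sbk1 differed less, by 0.32 ± 0.03, but as steadily: 3408 to 3877 in lithium against 2757 to 3338 in fluoxetine. Of these 12 genes only Fam43b overlapped between the arms, with 8 of 10 lithium libraries above all fluoxetine libraries. Among females with Gm10221 reads Rasl11a differed by 0.84 (adjusted p = 0.0415), Ier5l by 0.89 (adjusted p = 0.0143) and Sbk1 by 0.33 (adjusted p = 0.0555).

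For several of these genes the vehicle libraries lay with the lithium libraries. Stk40, a pseudokinase gene, had 1018 to 1223 in vehicle, 898 to 1291 in lithium and 723 to 890 in fluoxetine. Phf13, a chromatin reader, had 380 to 486 in vehicle, 392 to 479 in lithium and 296 to 370 in fluoxetine. Set against vehicle, Stk40 differed by -0.04 in lithium (adjusted p = 0.773) and by -0.50 in fluoxetine (adjusted p = 1.61e-08), and Phf13 by -0.01 (adjusted p = 0.962) and -0.44 (adjusted p = 2.1e-07). Rasl11a differed from vehicle in both arms and in opposite directions, by 0.45 in lithium (adjusted p = 0.00156) and -0.45 in fluoxetine (adjusted p = 0.00422). These comparisons share the drug libraries with the direct one, so they place each arm and add no independent support. All lithium libraries but no vehicle library have Gm10221 reads, here and in each comparison with vehicle below. A difference between lithium and vehicle therefore cannot be told apart from the reads.

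Immediate early genes formed the most complete block. Of 45 members of the list 32 were higher in lithium and none lower, beside 5.29% and 4.26% of all genes, and the median difference was 0.53. In 14 members, among them Arc, Junb, Egr4, Nr4a1, Dusp1, Nab2 and Nptx2, every lithium library lay above every fluoxetine library, beside 0.223% of all genes. Averaged over the list, the log2 level relative to the vehicle mean was -0.02 to 0.32 in lithium libraries and -0.57 to -0.20 in fluoxetine libraries, with vehicle libraries from -0.30 to 0.22. By role, 15 of 20 transcription factors, all 6 feedback inhibitors, 4 of 8 synaptic and secreted effectors and 7 of 11 other members were higher.

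Arc, whose protein drives the removal of AMPA receptors from synapses (chr15:74669083-74672570, minus strand), had 2131 to 4589 normalized reads in lithium (median 3317) and 586 to 1927 in fluoxetine (median 1124). No lithium library lay as low as the highest fluoxetine library, while vehicle ran from 1354 to 4521 and overlapped both. The difference between the drugs was 1.56 ± 0.24 (adjusted p = 1.16e-05). Junb, a partner of Fos in the AP-1 factor, had 852 to 1568 in lithium (median 1378) and 461 to 783 in fluoxetine (median 617), without overlap and with a difference of 1.09 ± 0.14 (adjusted p = 4.21e-07). Nr4a1, an orphan nuclear receptor, had 1620 to 2427 against 941 to 1598, also without overlap, a difference of 0.76 ± 0.13 (adjusted p = 6.21e-05).

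Fos and Egr2 overlapped at their edges. Fos had 520 to 1024 in lithium (median 827) and 154 to 590 in fluoxetine (median 352), with 8 of 10 lithium libraries above all fluoxetine libraries and a difference of 1.12 ± 0.21 (adjusted p = 0.000273). Egr2, a zinc finger factor, had 120 to 356 against 27.6 to 156 and differed by 1.35 ± 0.25 (adjusted p = 0.000174). Egr1 rose less clearly: only 1 of 10 lithium libraries lay above all fluoxetine libraries, and the difference was 0.71 ± 0.17 (adjusted p = 0.00356). Nr4a3 differed by 0.94 ± 0.15 (adjusted p = 1.33e-05).

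Among the feedback inhibitors, Nab2, a corepressor of the Egr factors, had 922 to 1186 in lithium (median 1081) and 640 to 802 in fluoxetine (median 729), a difference of 0.53 ± 0.06 (adjusted p = 1.74e-08). Spry4, an inhibitor of receptor tyrosine kinase signalling, had 352 to 521 against 257 to 341, a difference of 0.54 ± 0.06 (adjusted p = 3.27e-08). Dusp1, a phosphatase that inactivates MAP kinases, had 549 to 895 against 340 to 506, a difference of 0.73 ± 0.13 (adjusted p = 0.000221). All 3 were without overlap.

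Not every activity gene followed. Npas4, a neuronal factor that calcium entry induces, had 381 to 963 in lithium (median 477) and 336 to 674 in fluoxetine (median 492), a difference of 0.08 ± 0.19 (adjusted p = 0.856) whose sign turned to -0.17 in females. Bdnf, a neurotrophin, passed with a smaller difference of 0.34 ± 0.09 (adjusted p = 0.0109). Egr3, Nr4a2, Klf4, Crem, Homer1, Rheb, Ccn1, Amigo3, Btg2, Gadd45g, Pim1 and Plk2 did not pass either. Set against vehicle, 248 genes passed in fluoxetine (1.38%) and 1339 in lithium (7.47%). Lithium and vehicle libraries differ throughout in Gm10221 reads, while only 3 fluoxetine libraries have them, so these numbers do not rank the drugs. Of the list 17 members were lower in fluoxetine and none higher (0.915% and 0.469% of all genes), and 5 were higher in lithium and none lower (4.34% and 3.13%).

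**Figure D1:**
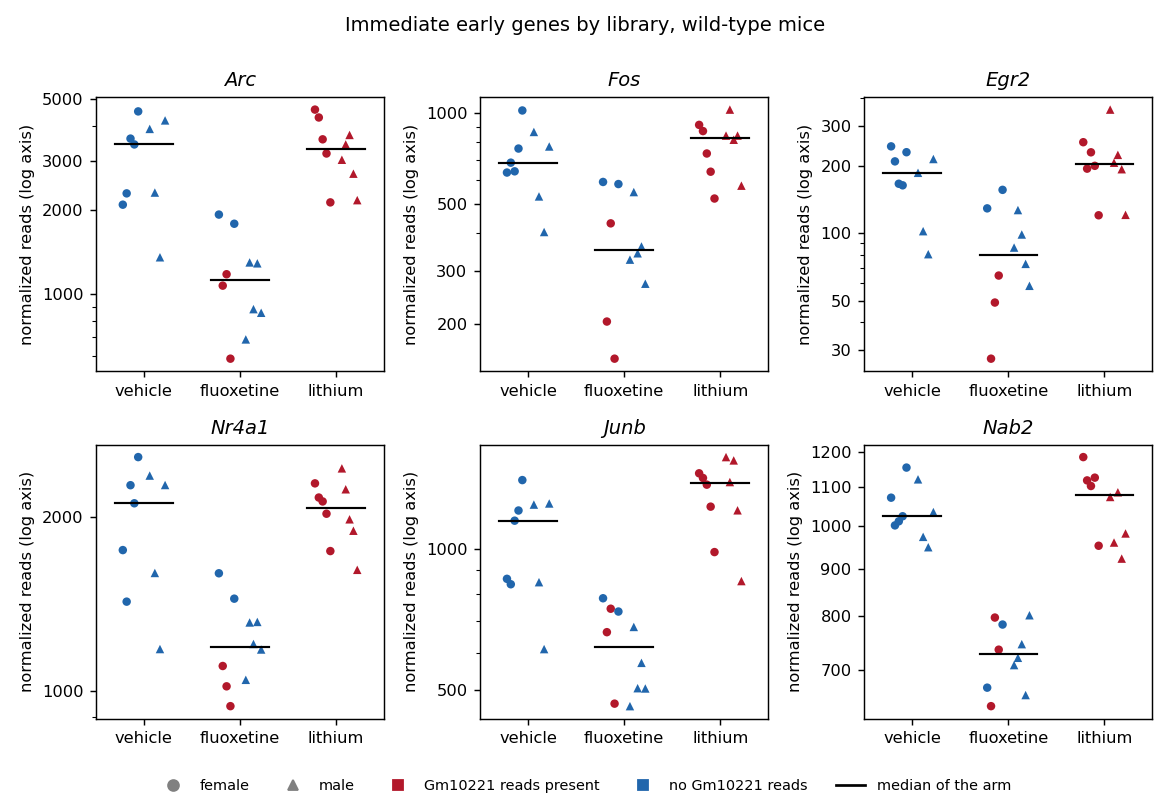
Normalized reads (log axis) of 6 immediate early genes in each WT library by drug arm; circles are females, triangles males, red marks libraries with Gm10221 reads, blue those without, and the line is the median of the arm. The lithium libraries of Arc (2131 to 4589) lie above those of fluoxetine (586 to 1927), and the 3 red fluoxetine females lie below the 2 blue ones for Arc, Fos, Egr2 and Nr4a1.

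Females with Gm10221 reads showed the immediate early block too. Arc stood at 1071, 1177 and 586 in the 3 fluoxetine females with the reads, at 1927 and 1786 in the 2 without, and at 2131 to 4589 in the lithium females. Within these 5 lithium and 3 fluoxetine females 142 genes passed (0.792%), 113 higher (0.63%) and 29 lower (0.162%). Immediate early genes made up 19 of the 113, with none among the lower, and their median difference was 0.64. Arc differed by 1.93 there (adjusted p = 0.016), Egr2 by 2.10 (adjusted p = 0.0156), Nr4a1 by 1.01 (adjusted p = 0.00381) and Nab2 by 0.60 (adjusted p = 0.0184). The same females differed in markers of other tissue and cells. All 17 olfactory bulb markers lay below 0, from -2.55 to -0.395, with a median of -1.004. That median lies farther from 0 than the 0.64 of the immediate early list. Of 20 myelin markers 19 lay above 0, with a median of 0.43. None of these markers passed. The part of these markers in the result was not tested. Of the 1712 genes, 115 also passed there in the same direction. Of the 948 higher genes 916 kept their sign, with a median of 0.23. Of the 764 lower genes 749 kept it, with a median of -0.25. These 5 lithium and 3 fluoxetine females are among the 20 libraries by which the genes were chosen. The signs and calls kept there therefore add no independent support.

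Promoters of immediate early genes are known for 2 elements, the cAMP response element bound by CREB and the CArG box bound by SRF. The 250 bases before the transcription start were searched on both strands for TGACGTCA and for the CArG box in the RefSeq promoters of GRCm38.p6, to which 12680 of the 17925 genes could be matched by symbol. The first was found in 4 of 35 matched immediate early genes: Btg2, Dusp1, Maff and Plk2, of which Btg2 and Plk2 did not pass. It was found in 4.9% of 714 matched genes that were higher in lithium and in 2.84% of all matched genes. The CArG box was found in 2 of 35 (Dusp5 and Egr2), in 2.24% of the higher genes and in 1.46% of all. The sterol response element and the endoplasmic reticulum stress element were searched too, and 0.0631% and 0.15% of all matched genes held them. Neither was found in the higher genes, the immediate early genes or 22 matched genes of cholesterol synthesis. The 2 promoters shown were chosen because each belongs to a member described above and holds an exact match to 1 of the elements. Capitals mark the match in each. That of Dusp1 is chr17:26508473-26508722 (minus strand), with the cAMP response element 143 to 136 bases before the start, and that of Egr2 is chr10:67537619-67537868 (plus strand), with the CArG box 72 to 63 bases before it. A match describes the sequence and is no evidence of binding here.
Dusp1: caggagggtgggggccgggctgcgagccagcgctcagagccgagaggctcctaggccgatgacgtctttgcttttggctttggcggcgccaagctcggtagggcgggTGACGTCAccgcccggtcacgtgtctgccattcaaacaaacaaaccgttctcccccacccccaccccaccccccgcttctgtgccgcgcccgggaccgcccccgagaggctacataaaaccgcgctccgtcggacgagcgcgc
Egr2: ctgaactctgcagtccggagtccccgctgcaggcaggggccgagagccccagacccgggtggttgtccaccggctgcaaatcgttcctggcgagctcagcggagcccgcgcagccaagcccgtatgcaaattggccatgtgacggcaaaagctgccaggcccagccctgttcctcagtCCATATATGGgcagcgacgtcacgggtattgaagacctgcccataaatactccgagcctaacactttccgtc

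Genes of cholesterol synthesis were moderately higher in lithium. Of 30 members 10 passed as higher and none as lower (5.29% and 4.26% of all genes), with a median difference of 0.14. Sqle, the squalene epoxidase, had 1908 to 2572 in lithium (median 2209) and 1570 to 2072 in fluoxetine (median 1814), with 8 of 10 lithium libraries above all fluoxetine libraries and a difference of 0.28 ± 0.05 (adjusted p = 0.000466). Pmvk, Cyp51 and Nsdhl, which act before and after squalene, differed by 0.21 to 0.29.

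For this pathway too it was the fluoxetine arm that lay away from vehicle. Sqle ran from 1911 to 2523 in vehicle. Fluoxetine differed from vehicle by -0.30 in Sqle (adjusted p = 0.00089) and by -0.31 in Cyp51 (adjusted p = 0.000601). In fluoxetine 15 members were lower than in vehicle and none higher (0.915% and 0.469% of all genes). In lithium 2 were lower and none higher (3.13% and 4.34% of all genes). Among females with Gm10221 reads no member passed, beside 0.63% of all genes higher and 0.162% lower, and the median was 0.23. Without the fifth fluoxetine female the number higher in lithium was 16.

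Nuclear-coded subunits of the respiratory chain and ATP synthase were higher in lithium as a broad and shallow shift. Of 78 members 38 passed as higher and none as lower (5.29% and 4.26% of all genes). The median was 0.14, and 76 members lay above 0. By complex, 16 of 37 members of complex I, 1 of 4 of complex II, 4 of 10 of complex III with cytochrome c, 9 of 11 of complex IV and 8 of 16 of ATP synthase were higher. Cox5b, a subunit of cytochrome c oxidase (chr1:36691449-36693681, plus strand), had 4454 to 5444 in lithium (median 4691) and 3328 to 4411 in fluoxetine (median 3826) and was the only member without overlap, with a difference of 0.32 ± 0.05 (adjusted p = 2.87e-06). Cox5a had 2430 to 2847 against 1830 to 2438, a difference of 0.29 ± 0.04 (adjusted p = 1.83e-06). The complex I subunits Ndufv2, Ndufb2, Ndufb9 and Ndufc2 differed by 0.24 to 0.37.

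Here lithium, not fluoxetine, stood away from vehicle. Cox5b had 3354 to 3905 in vehicle, all below the lithium libraries. Against vehicle 32 members were higher in lithium and none lower (4.34% and 3.13% of all genes). In fluoxetine none was higher or lower than in vehicle (0.469% and 0.915% of all genes). All vehicle libraries lack Gm10221 reads and all lithium libraries have them, so that contrast cannot be told apart from the reads. Among females with the reads 1 member passed as higher, beside 0.63% of all genes. It was Uqcr10, which was not among the 38 that passed over all 20 libraries. None of those 38 passed in these females, and the median of the list was 0.18. In males 19 members were higher and in females 4 (2.15% and 1.55% of all genes).

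Cytosolic ribosomal proteins moved in a similar way. Of 81 members 25 passed as higher and 1, Rps6, as lower (5.29% and 4.26% of all genes), with a median of 0.10. Those higher were 13 of 33 of the small and 12 of 48 of the large subunit. Rpl13 had 4193 to 4795 in lithium (median 4479) and 3234 to 4401 in fluoxetine (median 3765), a difference of 0.24 ± 0.04 (adjusted p = 4.94e-05). Rps10 had 2074 to 2701 against 1643 to 2080, with 9 of 10 lithium libraries above all fluoxetine libraries and a difference of 0.28 ± 0.06 (adjusted p = 0.000678). Rps2, Rps19, Rpl29 and Rpl36 differed by 0.17 to 0.32. No member passed among females with Gm10221 reads, beside 0.63% of all genes higher and 0.162% lower, and the median was 0.07. Once trends on transcript length and GC content had been removed 4 were higher, in a fit in which 4.57% of genes passed, 2.46% higher and 2.11% lower. The number fell to 15 without the first fluoxetine female, the first fluoxetine male, the second lithium female or the third lithium male. Many ribosomal genes have retroposed copies that can take part of their reads.

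The 13 genes coded in the mitochondrial DNA did not follow the nuclear subunits. Only mt-Atp6 was higher, by 0.57 ± 0.19 (adjusted p = 0.0431), and mt-Nd4l and mt-Nd6 were lower, by -0.61 ± 0.15 (adjusted p = 0.00509) and -0.36 ± 0.09 (adjusted p = 0.0071). In mt-Atp6 the 3 fluoxetine females with Gm10221 reads had 44646 to 65695 and the 2 without had 23007 and 11019, and among females with the reads its difference was -0.38 (adjusted p = 0.313). That of mt-Nd6 was 0.06 there (adjusted p = 0.744). The call of mt-Atp6 was lost without any of 10 single libraries, with an adjusted p of up to 0.111, reached without the fifth fluoxetine female.

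**Figure D2:**
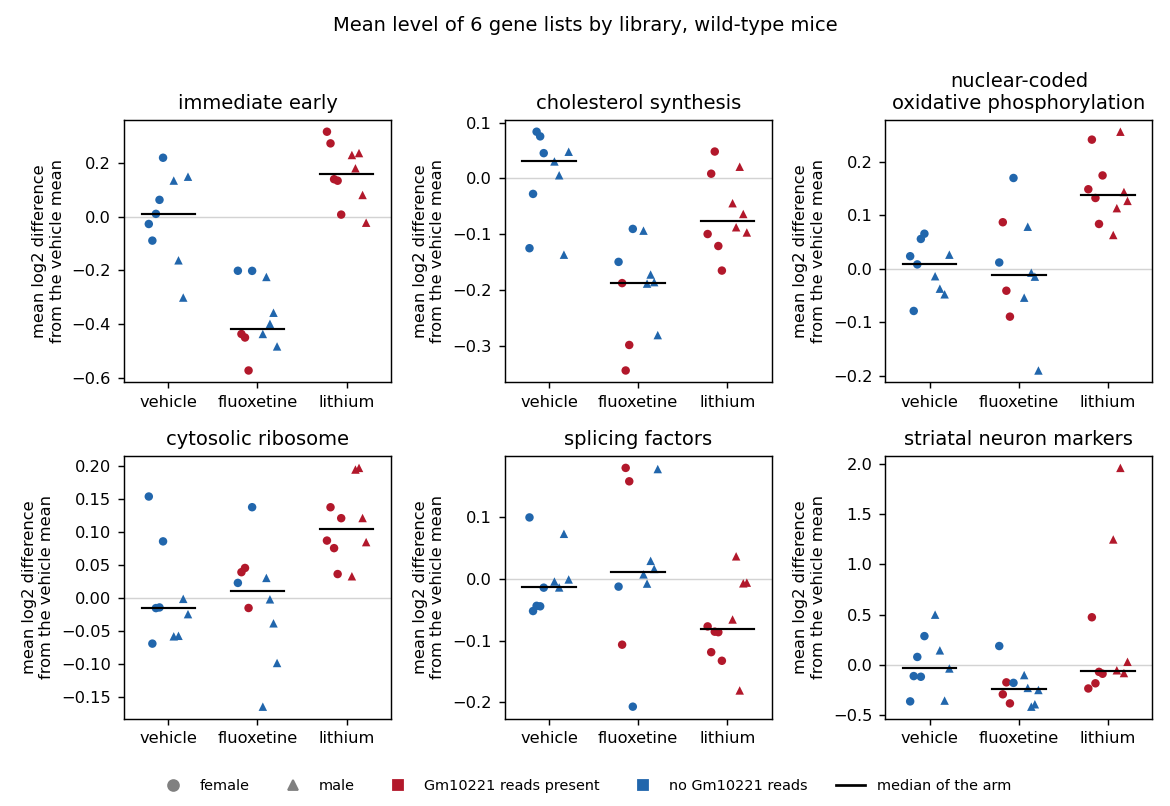
Mean log2 level of each list relative to the vehicle mean, 1 point a WT library; circles are females, triangles males, red marks libraries with Gm10221 reads, blue those without, and the line is the median of the arm. Lithium and fluoxetine libraries do not overlap for the immediate early list (-0.02 to 0.32 against -0.57 to -0.20), they overlap for the other 5, and 2 lithium males stand apart for the striatal markers.

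Genes lower in lithium mostly differed by little. The 12 with the smallest p were Taf15, Tnnc1, Odf2, Htatsf1, Zfp763, Flrt3, Zfp941, Rian, Nemp2, Fam229b, Ddhd2 and Las1l. Taf15, an RNA-binding protein of the FET family, had 924 to 1246 in lithium (median 1078) and 1093 to 1507 in fluoxetine (median 1366), with a difference of -0.33 ± 0.05 (adjusted p = 1.83e-06). Tnnc1, a troponin subunit that binds calcium, had 448 to 761 against 670 to 1182, with 9 of 10 lithium libraries below all fluoxetine libraries and a difference of -0.72 ± 0.11 (adjusted p = 1.33e-05). The zinc finger gene Zfp941 was the only 1 of the 12 without overlap, at 688 to 810 in lithium and 834 to 1011 in fluoxetine, a difference of -0.25 ± 0.04 (adjusted p = 4.54e-05). Flrt3, an adhesion molecule that binds latrophilins, had 551 to 713 in lithium, 604 to 944 in fluoxetine and 555 to 685 in vehicle, and differed by -0.37 ± 0.06 (adjusted p = 2.88e-05).

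Splicing factors tended the same way. Of 42 members 8 were lower and none higher (4.26% and 5.29% of all genes), with a median of -0.09, and 41 of the 42 lay below 0. Besides Taf15, Hnrnpr differed by -0.15 ± 0.03 (adjusted p = 0.000549), Tardbp, which encodes TDP-43, by -0.18 ± 0.04 (adjusted p = 0.00178), and Srrm2, a scaffold of nuclear speckles, by -0.23 ± 0.06 (adjusted p = 0.0042). Luc7l3 and Srsf11 differed by -0.19 and -0.16, and the call of Srsf11 was lost without the fourth fluoxetine female (adjusted p = 0.0679). The arms overlapped in all of these. Among females with Gm10221 reads none passed, beside 0.63% of all genes higher and 0.162% lower, and the median was -0.17. The number lower was 18 without the fifth fluoxetine female and 5 without the fourth. It was 1 with trends on length and GC content removed, 3 with only the 20 libraries in the fit and 22 with a term for Gm10221 reads.

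Rian, an imprinted long noncoding RNA that lies beside Meg3, had 18773 to 23080 in lithium (median 21103) and 20781 to 28009 in fluoxetine (median 24657), a difference of -0.24 ± 0.04 (adjusted p = 4.57e-05). The long noncoding RNAs Meg3 (chr12:109541001-109571726, plus strand) and Snhg11 were picked after their values were seen. Meg3 had 97247 to 142546 in lithium, 119788 to 164284 in fluoxetine and 128091 to 161954 in vehicle, and differed by -0.34 ± 0.06 (adjusted p = 0.000195). Snhg11 had 40888 to 54244 against 46566 to 63938 and differed by -0.30 ± 0.05 (adjusted p = 0.000126). Among females with the reads the differences of Rian, Meg3 and Snhg11 were -0.14, -0.31 and -0.24 and did not pass.

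RNA of the known lithium targets differed little. Of 22 measured genes of inositol metabolism and GSK3, 2 were higher and 1 lower (5.29% and 4.26% of all genes). The median was 0.02. Itpkc, a kinase that turns inositol trisphosphate into the tetrakisphosphate (chr7:27207172-27228661, minus strand), had 184 to 218 in lithium (median 204), 116 to 167 in fluoxetine (median 142) and 166 to 243 in vehicle. Lithium and fluoxetine did not overlap and differed by 0.51 ± 0.06 (adjusted p = 6.76e-08), and the fluoxetine arm was the 1 away from vehicle, by -0.51 (adjusted p = 3.19e-07). Among females with Gm10221 reads Itpkc differed by 0.46 (adjusted p = 0.0619). Ipmk, an inositol multikinase, and Cds1, which makes CDP-diacylglycerol, differed by 0.11 (adjusted p = 0.0455) and -0.12 (adjusted p = 0.0369), calls that were lost without 14 and 9 of the 20 libraries in turn, with an adjusted p of up to 0.103 and 0.0902.

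The targets of the ion itself did not pass over all 20 libraries. Impa1, the main inositol monophosphatase, had 1846 to 2156 in lithium (median 1992) and 1730 to 2038 in fluoxetine (median 1872), a difference of 0.08 ± 0.03 (adjusted p = 0.0933), which passed without the fourth fluoxetine male (0.10, adjusted p = 0.0411). Impa2 differed by 0.16 ± 0.09 (adjusted p = 0.292). Gsk3b, at 6367 to 7382 against 6280 to 7577, differed by -0.02 ± 0.04 (adjusted p = 0.828), and Gsk3a by 0.01 ± 0.04 (adjusted p = 0.915), with signs that turned under some of the alternatives.

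Of 24 measured genes of the β-catenin pathway 2 were higher and 1 lower (5.29% and 4.26% of all genes), with a median of -0.03. Axin1, a scaffold of the complex that degrades β-catenin, had 615 to 726 in lithium and 575 to 697 in fluoxetine, a difference of 0.14 ± 0.04 (adjusted p = 0.0054), 0.03 among females with the reads. Tcf7l1, a repressor of the pathway's targets, differed by 0.42 ± 0.12 (adjusted p = 0.0226). Apc, another member of that complex, differed by -0.18 ± 0.06 (adjusted p = 0.0379). The calls of Tcf7l1 and Apc were lost without 3 and 11 of the 20 libraries in turn, with an adjusted p of up to 0.0665 and 0.0922, both without the first fluoxetine female.

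Of 18 measured genes of serotonin signalling 1 was higher and 3 were lower, beside 5.29% and 4.26% of all genes, with a median of -0.03; the transporter gene Slc6a4 is not analysed here. Htr1a, the inhibitory receptor that is also the autoreceptor, had 481 to 604 in lithium (median 589), 511 to 826 in fluoxetine (median 760) and 506 to 759 in vehicle. It differed by -0.30 ± 0.08 (adjusted p = 0.00845), with 2 of 10 lithium libraries below all fluoxetine libraries. Htr5a had 701 to 930 against 601 to 795 and differed by 0.23 ± 0.06 (adjusted p = 0.00965), with 7 of 10 lithium libraries above all fluoxetine libraries.

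Htr1f differed by -0.46 ± 0.13 (adjusted p = 0.0177), and Htr2a, the main excitatory receptor of cortical pyramidal neurons, by -0.20 ± 0.06 (adjusted p = 0.0371). The call of Htr1f was lost without the third fluoxetine female (adjusted p = 0.0506) and that of Htr2a without 11 of the 20 libraries in turn (adjusted p up to 0.0995, without the second fluoxetine female). No member passed among females with Gm10221 reads, beside 0.63% of all genes higher and 0.162% lower. There Htr1a differed by -0.12, Htr5a by 0.40 and Htr1f by -0.77. Between fluoxetine and vehicle no member passed, beside 0.469% of all genes higher and 0.915% lower. In lithium 1 member was lower than in vehicle and none higher (3.13% and 4.34% of all genes).

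**Figure D3:**
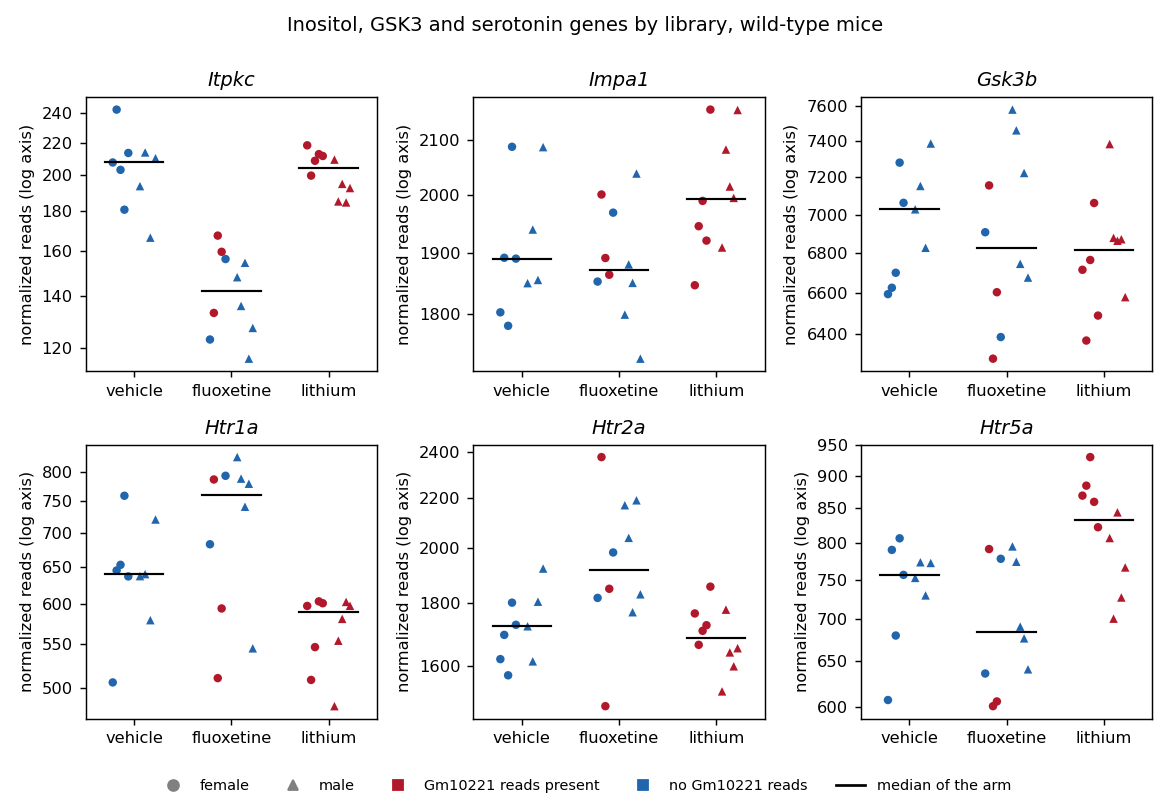
Normalized reads (log axis) of 3 genes of inositol and GSK3 signalling and 3 serotonin receptors in each WT library by drug arm; circles are females, triangles males, red marks libraries with Gm10221 reads, blue those without, and the line is the median of the arm. Itpkc separates the arms (184 to 218 in lithium, 116 to 167 in fluoxetine), while the other 5 genes overlap.

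Synaptic genes stayed near the background. Of 50 excitatory postsynaptic genes 1 was higher and 3 lower, and of 42 presynaptic genes 2 and 2 (5.29% and 4.26% of all genes). Cacng8, an auxiliary subunit of AMPA receptors, had 1137 to 1492 in lithium and 901 to 1272 in fluoxetine, a difference of 0.32 ± 0.06 (adjusted p = 0.000294), while Tnik, Gria2 and Grm8 differed by -0.14, -0.12 and -0.21. Vamp1, a vesicle SNARE, had 1388 to 1992 against 1707 to 2646, a difference of -0.28 ± 0.07 (adjusted p = 0.00554). Unc13c, a priming factor, was lower by -0.27, and Sv2a and Nrxn2 were higher by 0.10 and 0.12. The calls of Gria2, Grm8 and Nrxn2 were lost without 8, 10 and 10 of the 20 libraries in turn (adjusted p up to 0.0977, 0.0997 and 0.108).

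Of 31 genes of GABA synapses and interneurons 3 were higher, all of them neuropeptides, and 1 was lower (5.29% and 4.26% of all genes), with a median of -0.02. Tac1 encodes substance P, and its values of 505 to 1196 in lithium against 359 to 545 in fluoxetine gave a difference of 0.67 ± 0.16 (adjusted p = 0.00346). Tac1 is a striatal marker too, and that list had a median of 0.50 with 2 lithium males standing apart; its part in the result was not tested. Cort and Cck differed by 0.47 ± 0.13 (adjusted p = 0.0128) and 0.28 ± 0.08 (adjusted p = 0.0146). The call of Cck was lost without the fifth fluoxetine male (adjusted p = 0.0503).

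Among 51 voltage-gated channel genes 1 was higher and 2 lower (5.29% and 4.26% of all genes). Kcnj2, an inward rectifier, had 320 to 534 in lithium (median 440), 514 to 850 in fluoxetine (median 662) and 381 to 694 in vehicle, with 8 of 10 lithium libraries below all fluoxetine libraries and a difference of -0.58 ± 0.11 (adjusted p = 0.000263). Hcn2, a pacemaker channel, was higher by 0.26 ± 0.05 (adjusted p = 0.000888). Kcnd3 was lower by -0.24 (adjusted p = 0.0489), a call lost without 15 libraries in turn (adjusted p up to 0.132, without the third fluoxetine female).

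Of 22 clock genes 5 were higher, among them Per1, Bhlhe40, Nfil3 and Arntl, and 3 were lower, among them Per3 and Nr1d2, beside 5.29% and 4.26% of all genes and with a median near 0 (-0.0036). Among females with Gm10221 reads 2 were higher and none lower (0.63% and 0.162% of all genes), with a median of 0.096. Per1 had 2522 to 3391 in lithium (median 2937) and 1867 to 2494 in fluoxetine (median 2018), without overlap and with a difference of 0.49 ± 0.06 (adjusted p = 5.81e-08). Bhlhe40, which represses E-box genes, differed by 0.44 ± 0.09 (adjusted p = 0.000555). Per3 had 1005 to 1429 against 1209 to 1552 and differed by -0.26 ± 0.05 (adjusted p = 0.000101), and the receptor gene Nr1d2 by -0.20 ± 0.04 (adjusted p = 0.000593). Per1 and Nfil3 are also on the immediate early list, and the labels do not state the hour of sampling.

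Of 24 glucocorticoid-responsive genes 6 were higher and none lower (5.29% and 4.26% of all genes). Of the 6, Per1 and Dusp1 are immediate early genes too. Among females with Gm10221 reads 1 was higher (0.63% of all genes). Sgk1, a kinase of ion transport, differed by 0.31 ± 0.07 (adjusted p = 0.00146), Errfi1 by 0.20 ± 0.05 (adjusted p = 0.00324) and Ddit4, an inhibitor of mTORC1, by 0.33 ± 0.09 (adjusted p = 0.00854). Klf9 differed by 0.15 (adjusted p = 0.0367), a call lost without 10 libraries in turn (adjusted p up to 0.0876, without the third fluoxetine male). Of 30 genes of endoplasmic reticulum stress, Atf4 was higher by 0.30 ± 0.07 (adjusted p = 0.00365) and Hsp90b1 lower by -0.10 (adjusted p = 0.0263), the latter a call lost without 5 libraries in turn (adjusted p up to 0.0728, without the third lithium male). Dnajb5 was the 1 of 25 heat shock genes that passed, at 0.28 ± 0.04 (adjusted p = 1.08e-05), and Psma7 the 1 of 32 proteasome genes, both higher.

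**Figure D4:**
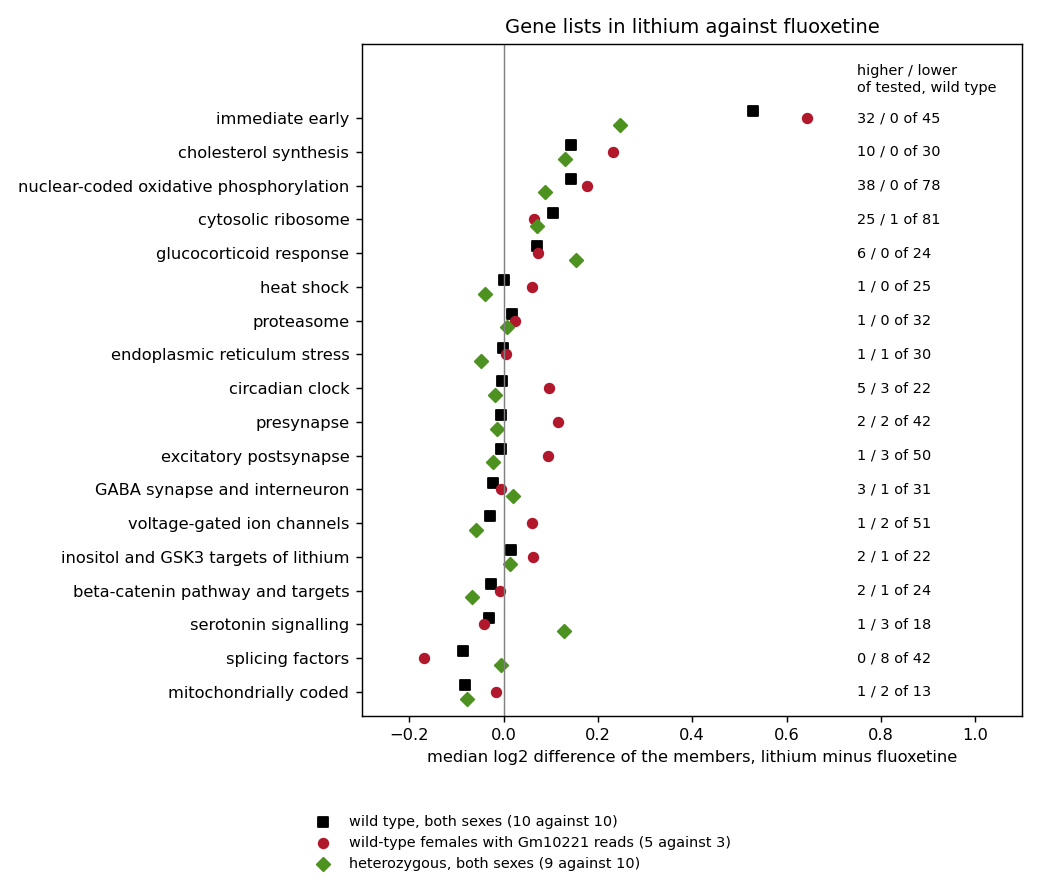
Median log2 difference, lithium minus fluoxetine, of the members of 18 gene lists in WT mice, in WT females with Gm10221 reads and in HT mice, with the members that passed in WT as higher or lower of those tested. Among these 18 lists the immediate early list lies farthest from 0 in WT (0.53) and in females with the reads (0.64). Most of them lie within 0.2 of 0. Marker lists of cell types and neighbouring regions are not drawn.

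Markers of cortical layers, which check the labelled tissue, summed to 28439 to 32002 normalized reads for upper layers in lithium and 26240 to 33867 in fluoxetine, and to 13706 to 17199 and 13211 to 15764 for deep layers. Markers of other cells passed in few places, beside 5.29% of all genes higher and 4.26% lower. None of the markers of astrocytes (15 tested), microglia (16), endothelium (16), pericytes and smooth muscle (10), meninges (12), red blood cells (8) or olfactory bulb (17) passed. Of 20 myelin markers Ppp1r14a was higher, by 0.74 ± 0.22 (adjusted p = 0.0224), and of 10 markers of oligodendrocyte precursors Gpr17, by 0.20 (adjusted p = 0.0371). Among cortical layer markers Rasgrf2 and Otof of the upper layers were lower, by -0.23 ± 0.06 (adjusted p = 0.00544) and -0.41 ± 0.11 (adjusted p = 0.0128), and Etv1 of the deep layers by -0.23 (adjusted p = 0.0347). Cldn2, a choroid plexus marker near the lower limit of the counts (0.983 to 7.17 in lithium, 6 to 29.7 in fluoxetine), differed by -1.53 ± 0.34 (adjusted p = 0.00161). The calls of Ppp1r14a, Gpr17 and Etv1 were lost without 2, 10 and 9 of the 20 libraries in turn (adjusted p up to 0.0624, 0.101 and 0.109).

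Markers of 2 neighbouring regions varied between single libraries. Striatal markers summed to 7914 to 10068 in fluoxetine and to 9520 to 24212 in lithium, where the third male had 24212 and the first male 15762 and the other 8 lay between 9520 and 10940. The median difference of the 15 striatal markers was 0.50, with 14 above 0, and it was 0.75 in males and 0.11 in females. Of the 15, Tac1 and Ppp1r1b, the latter encoding DARPP-32, were higher, and the call of Ppp1r1b (0.68 ± 0.21, adjusted p = 0.027) was lost without 4 libraries in turn, at 0.52 (adjusted p = 0.0965) without the third lithium male. Olfactory bulb markers summed to 7972 to 29259 in lithium and 7266 to 44648 in fluoxetine, with a median difference of 0.06 over all libraries. Among females with Gm10221 reads all 17 lay below 0, with a median of -1.004. With both marker scores as covariates, an alternative added after seeing the data, 1906 genes passed (10.6%), 6.01% higher and 4.62% lower, and 1420 of the 1712 were among them. Without the third lithium male 31 immediate early genes were higher, and 31 to 34 without any 1 library. In bulk tissue, fewer cells of a type and less RNA per cell cannot be told apart.

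The HT mice gave a comparison with no library in common, 9 lithium against 10 fluoxetine. Whether Gm10221 reads ran alongside the drug in HT too is not reported here. As no dam or litter is named, HT and WT mice may also share a mother. There 1121 genes passed (6.25%), 572 higher (3.19%) and 549 lower (3.06%). The genotypes shared 251 of the higher genes, 26.5% of the WT and 43.9% of the HT set, and 176 of the lower genes, 23.0% and 32.1%. No gene passed in opposite directions. Of the WT genes 875 of 948 higher and 686 of 764 lower had the same sign in HT, with medians of 0.12 and -0.12 there; these genes were chosen for passing in WT, so their WT medians of 0.23 and -0.22 are not set against these.

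Gene by gene, Sbk1 differed by 0.18 in HT (adjusted p = 0.00167), Rasl11a by 0.66 (adjusted p = 1.44e-05), Rara by 0.70 (adjusted p = 4.22e-05) and Per1 by 0.50 (adjusted p = 3.82e-07). Of the immediate early list 15 of 45 were higher in HT and none lower, with a median of 0.25, Arc by 0.90 (adjusted p = 0.0197) and Junb by 0.80 (adjusted p = 0.000624). Egr4 differed by 0.29 (adjusted p = 0.164), Egr1 by 0.14 (adjusted p = 0.694) and Ier5 by 0.18 (adjusted p = 0.203). Cholesterol genes had 6 higher and respiratory subunits 14, with none lower (3.19% and 3.06% of all genes in HT). No splicing factor passed and their median was -0.0055.

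The test of the difference between the genotypes called no gene with limma (1567 at an unadjusted p under 0.05, smallest adjusted p 0.143), none with edgeR and 3 with DESeq2. Limma called 7 without the fifth WT fluoxetine female and 1 without the first or the fourth WT lithium male. The 3 genes with the smallest p were Ccnf, Slf1 and Cpt1b. Ccnf, a cyclin that targets proteins for degradation, differed by 0.49 in WT and -0.02 in HT, Slf1, a DNA repair factor, by -0.21 and 0.06, and Cpt1b, a carnitine palmitoyltransferase with few reads (0 to 42.2 in lithium), by -1.71 and 1.46. Each had an adjusted p of 0.143 for the difference between genotypes. The call of Cpt1b in WT was lost without the second lithium female or the fifth lithium male (adjusted p = 0.0627 and 0.0525).

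**Figure D5:**
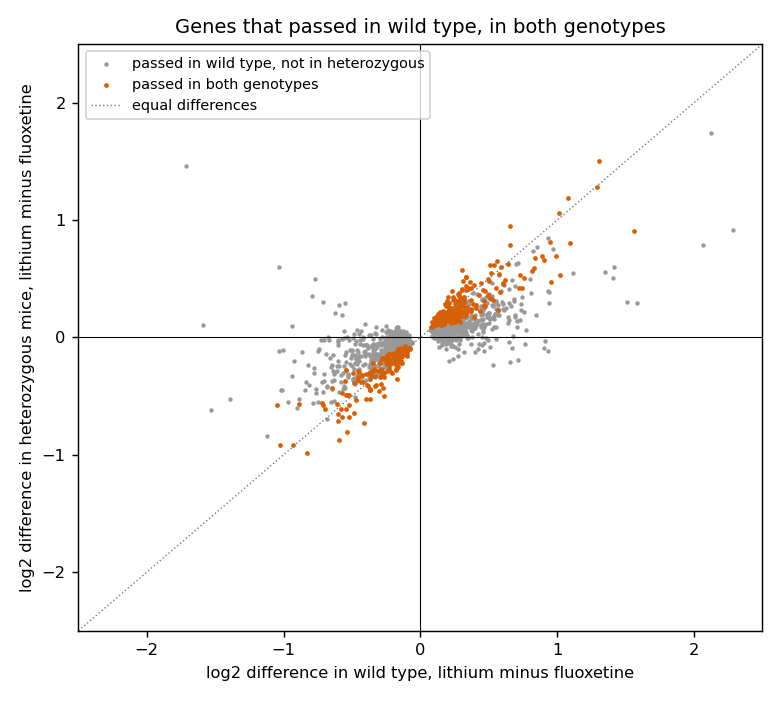
Log2 difference, lithium minus fluoxetine, in HT mice (y axis) against WT mice (x axis) for each of the 1712 genes that passed in WT; orange points passed in both genotypes, grey ones in WT and not in HT, and 4 genes lie outside the axes. Points lie mostly in the quadrants of equal sign (875 of 948 and 686 of 764).

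The sexes were tested against each other in the same fit. Females alone gave 440 genes (2.45%), 278 higher (1.55%) and 162 lower (0.904%), and males alone 657 (3.67%), 386 higher (2.15%) and 271 lower (1.51%), and the genes called in WT had medians of 0.23 and -0.21 in females and 0.23 and -0.22 in males. Immediate early genes were higher in 22 members in females and 21 in males, cytosolic ribosomal genes in 0 and 18. The difference between the sexes passed in no gene with limma (1414 at an unadjusted p under 0.05, smallest adjusted p 0.0582), in none with edgeR and in 7 with DESeq2, and limma called up to 5 when single libraries were left out, 5 without the first fluoxetine female. Foxf2, a forkhead factor of pericytes, differed by 0.59 in females and -0.43 in males (adjusted p = 0.0582), mt-Co2 by 0.51 and -1.22 (adjusted p = 0.0631) and Ecm1, an extracellular matrix protein, by 0.48 and -0.15 (adjusted p = 0.274). Of the 4 WT groups compared, only the fluoxetine females held libraries both with and without Gm10221 reads, and a difference between the sexes and one that follows the reads cannot be told apart.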

How the data were processed

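Polyadenylated RNA of prefrontal cortex was sequenced, 1 library a mouse. The authors deposited normalized counts, a signal in which each library's reads were scaled by a single factor, in 1 table of 58 libraries. The submitters' processing notes name Salmon 0.11.2, DESeq2 1.19.11, R 3.6.0 and the build GRCm38; their options are not given in the sources used here. Multiples of the value of 1 read gave back whole reads for 100% of values (tolerance 0.01), though in 11 columns that value is near 1 and the test cannot tell; the reads served for depth and for count tests.

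A gene was tested where 4 or more libraries reached a value of 10, which left 17925 of 18088. log2(value + 1) was fitted with limma 3.58.1 in R 4.3.3 to all 12 groups of sex, genotype and treatment, and lithium minus fluoxetine in WT was the mean of the female and male differences. P-values were adjusted by Benjamini and Hochberg's method over all genes kept, with a threshold of 0.05. Differences on this scale understate changes of low genes. Tests of the difference between genotypes and between sexes came from the same fit. Alternatives used edgeR 4.0.16 and DESeq2 1.42.0 on recovered reads, sva 3.50.0, other filters, pseudocounts of 0.1 and 5, terms for Gm10221 reads, a replicate block, trends on length and GC content, and leaving out each library. Another fitted only the 20 libraries compared. No 2 of the 20 libraries agreed within sampling noise (lowest chi-square per degree of freedom 3.83 over 190 pairs). The fit was tested on simulated counts of 17925 genes, drawn independently, with changes set only in genes with a mean value of at least 50. For the WT comparison it recovered 34 of 62 log2 changes of 0.25, 64 of 70 of 0.5 and 68 of 68 of 1. Of 178 calls 12 were genes left unchanged.

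Named genes were the 12 with the smallest p in each direction (mean value of at least 50, unnamed gene models passed over), the 3 with the smallest p for each difference of differences, up to 6 members of each list by p, members of the lithium target and serotonin lists, and Gm10221, mt-Atp6, Scand1 and Tanc2. Arc, Fos, Egr1, Egr2, Nr4a1, Nr4a3, Npas4, Bdnf, Meg3, Snhg11, Jund, Vgf, Cebpb and Depp1 were named after their values were seen, as were members given only by their call. The comparison and the gene lists were chosen with earlier results of these data known. Gene positions are of GRCm38, 1-based. Some members of the lists are not reported here by name.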

Additional observations from a re-analysis of the deposited data

Results flagged for a closer look

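Normalized reads of the 122 named genes were searched within each of the 4 WT drug groups of 5 mice for a library far from the other 4. In 31 of 488 groups the gap to the nearest library, over the whole range of the group, was above Dixon's critical value of 0.71, which chance passes in about 1 group in 20. The library named lies above or below the range of the other 4, which follows each value.

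The fifth fluoxetine male stood apart in Zfp941 (945 against 889 to 892 in the other 4), Nemp2 (253 against 191 to 208 in the other 4) and Luc7l3 (6152 against 5225 to 5489 in the other 4). It also stood apart in Axin1 (667 against 577 to 589 in the other 4), Tcf7l1 (121 against 75.2 to 85.4 in the other 4) and Tnik (9307 against 7645 to 8033 in the other 4). Further such genes in that library were Cck (4783 against 6696 to 7435 in the other 4), Kcnd3 (3206 against 2482 to 2555 in the other 4) and Otof (683 against 846 to 903 in the other 4). The fifth fluoxetine female stood apart in Per1 (2494 against 2005 to 2038 in the other 4), Per3 (1209 against 1385 to 1447 in the other 4) and Sv2a (14739 against 11997 to 12419 in the other 4). It also stood apart in Atf4 (2895 against 2599 to 2681 in the other 4). The third lithium male stood apart in Nemp2 (98 against 152 to 171 in the other 4), Cox5b (5444 against 4454 to 4536 in the other 4) and Ndufb9 (4250 against 3415 to 3632 in the other 4). It also stood apart in Hnrnpr (2562 against 2754 to 2826 in the other 4). The first lithium female stood apart in Rasl11a (164 against 120 to 130 in the other 4) and Nfil3 (252 against 203 to 217 in the other 4). The third lithium female stood apart in Fam229b (278 against 204 to 221 in the other 4) and Srrm2 (22165 against 18343 to 19286 in the other 4). The fifth lithium female stood apart in Stk40 (1066 against 1228 to 1291 in the other 4) and Rpl29 (4031 against 3706 to 3793 in the other 4). The first fluoxetine female stood apart in Rps19 (1318 against 1545 to 1615 in the other 4). The third fluoxetine female stood apart in Bdnf (634 against 907 to 989 in the other 4). The third fluoxetine male stood apart in mt-Atp6 (19096 against 28457 to 30986 in the other 4). The fourth fluoxetine male stood apart in Cldn2 (29.7 against 7.59 to 13.6 in the other 4). The fourth lithium female stood apart in Spry4 (521 against 420 to 449 in the other 4). The first lithium male stood apart in Egr1 (8376 against 5695 to 6230 in the other 4). The second lithium male stood apart in Vamp1 (1388 against 1864 to 1992 in the other 4). The fifth lithium male stood apart in Errfi1 (824 against 909 to 943 in the other 4).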

How the results depend on the processing

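Of the 114 named genes that passed, 93 kept the call without each of the 20 libraries in turn. Under edgeR (1686 genes passed), DESeq2 (1829), other pseudocounts (1716 and 1727), another filter on low values (1683 and 1706) and quantile normalization (1840, of which 942 were higher and 898 lower), the number of genes passed stayed within 1.5 times. With the Gm10221 term the number did too (1980), but only 682 were among the 1712. Of the WT groups only the fluoxetine females hold libraries with and without the reads, so in males that term carries over a difference measured in other groups. In simulated data 54.8% of changes of 0.25 were recovered, in genes with a mean value of at least 50. Only 178 genes were called there, against 1712 in the data, so that share sets no limit of detection here. Recovery was not measured for medians of lists. For the values below the cause was not tested, other than that fewer libraries enter some fits.

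With 2 surrogate variables 3080 genes passed, 1648 higher and 1432 lower, with 19 cholesterol genes higher and 19 splicing factors lower. With the Gm10221 term 16 cholesterol genes and 9 ribosomal genes were higher and 22 splicing factors lower. With that term and sex additive 908 passed, 522 higher and 386 lower, with 21 respiratory and 7 ribosomal genes higher and 5 splicing factors lower. Among females with Gm10221 reads 142 passed, 113 higher and 29 lower, with 19 immediate early, 0 cholesterol, 1 respiratory and 0 ribosomal genes higher and 0 splicing factors lower. With such females of both genotypes in the fit, an alternative added after seeing the data, 556 passed, 353 higher and 203 lower, with 4 cholesterol, 2 respiratory and 0 ribosomal genes higher and 4 splicing factors lower.

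In females only 440 passed, 278 higher and 162 lower, with 1 cholesterol, 4 respiratory and 0 ribosomal genes higher and 1 splicing factor lower. In males only 657 passed, 386 higher and 271 lower, with 21 immediate early, 4 cholesterol and 19 respiratory genes higher and 2 splicing factors lower. With trends on length and GC content removed 819 passed, 441 higher and 378 lower, with 25 respiratory and 4 ribosomal genes higher and 1 splicing factor lower. With only the 20 libraries compared 450 genes and 3 splicing factors were lower, and 5 splicing factors with quantile normalization. DESeq2 called 3 genes for the difference between genotypes and 7 for that between sexes, and the stricter filter 1 for the latter.

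Leaving out single libraries gave 1134 to 2338 genes passed, 668 to 1231 higher and 466 to 1107 lower. It gave 0 to 7 genes for the difference between genotypes and 0 to 5 for that between sexes. List counts ran from 31 to 34 for immediate early, 8 to 16 for cholesterol, 28 to 51 for respiratory, 15 to 31 for ribosomal genes and 5 to 18 for splicing factors.

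With the replicate number as a block 1756 genes passed, 952 higher and 804 lower, of which 1637 were among the 1712. The numbers did not pair the samples: deviations of same-numbered lithium and fluoxetine libraries correlated at -0.23 to -0.07 in females and -0.09 to 0.18 in males, and 2 of 10 libraries correlated best with their own number.

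Signs turned in 11 genes. With the Gm10221 term the differences were -0.29 for Gm10221, -0.68 for mt-Atp6, -0.022 for Scand1 and -0.094 for Tcf7l1, and with that term and sex additive -0.050 for Gm10221, -0.28 for mt-Atp6 and 0.45 for mt-Co2. Among females with the reads, in WT alone and with both genotypes in the fit, they were -0.39 for Gm10221, -0.38 for mt-Atp6, -0.0099 for Npas4, 0.056 for mt-Nd6, 0.0011 for Gsk3b and 0.69 for mt-Co2. In females only they were -0.17 for Npas4, 0.022 for mt-Nd6, 0.0036 for Gsk3b and 0.51 for mt-Co2, and in males only -0.027 for Gsk3a, -0.43 for Foxf2 and -0.15 for Ecm1. Gsk3a stood at -0.066 with the length and GC trends removed. Without single libraries it ran from -0.017 (without fluoxetine female 3) to 0.030 (without fluoxetine female 5), and was below 0 also without fluoxetine female 4 (-0.0033) or fluoxetine male 5 (-0.013).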

Other observations

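The 4 genes given here lie outside the lists, were higher in lithium with overlapping arms, and were picked after their values were seen. Vgf, which encodes a secreted neuropeptide precursor, had 4570 to 7481 normalized reads in lithium (median 5801), 2889 to 4600 in fluoxetine (median 4005) and 3621 to 4356 in vehicle. In Vgf 9 of 10 lithium libraries lay above all fluoxetine libraries, and the difference was 0.62 ± 0.09 over all 20 libraries (limma, adjusted p = 2.04e-06) and 0.87 among females with Gm10221 reads (adjusted p = 0.0179). Jund, another partner of Fos, had 2377 to 3228 in lithium and 1546 to 2664 in fluoxetine, a difference of 0.50 ± 0.07 (adjusted p = 1.54e-06) that was 0.23 among those females (adjusted p = 0.109).

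Cebpb, a transcription factor of the bZIP family, had 88.0 to 132 in lithium, 48.1 to 104 in fluoxetine and 47.8 to 74.4 in vehicle, so that all vehicle libraries lay below all lithium libraries. It differed between the drugs by 0.72 ± 0.10 (adjusted p = 3.07e-06). Depp1, a FOXO target linked to autophagy, went the other way against vehicle: it had 27.8 to 88.2 in vehicle, 9.56 to 77.7 in lithium and 6.16 to 29.2 in fluoxetine. Its difference between the drugs was 1.08 ± 0.26 (adjusted p = 0.00434), and it passed as higher in lithium in HT mice too (adjusted p = 0.00463).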
